A study of Rattus norvegicus with 2 samples.

Results

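The 8 genes described here encode glucose transporters and enzymes of glycolysis in the left ventricle (LV) of Dahl salt-sensitive (DS) rats, a model in which dietary salt raises blood pressure and leads to heart failure. They are Eno3, Eno1, Ldha, Ldhb, Hk2, Slc2a4, Slc2a1 and Gapdh, chosen by Ensembl ID from the 20174 genes with 1 probe each on a rat oligonucleotide chip. Eno3 entered the set as a member of the study's list of 50 genes, which was drawn up from the same arrays, and the other 7 were added around it, as the general form of the same step (Eno1) or as genes of glucose uptake and of other steps of glycolysis and lactate metabolism. All 8 IDs were on the chip, all 8 had a ratio on both arrays, and 7 of the 8, all but Hk2, were bright, which here means that both readings of the HS (−) pool reached a signal of 100.

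LV RNA was taken once heart failure had developed in the model, and RNA of 3 male rats was pooled for each group. The control group was fed 0.3% NaCl without chaetocin [NS (−)], the heart failure group 8% NaCl without chaetocin [HS (−)], and the treatment group 8% NaCl with 0.25 mg/kg of chaetocin, injected intraperitoneally between the ages of 6 and 13 weeks, with 2 doses in each week [HS (ch+)]. Chaetocin is a fungal product that inhibits SU(VAR)3-9, an enzyme that trimethylates lysine 9 of histone H3. It was dissolved in DMSO, and the sources used here do not say whether the untreated rats received DMSO. On array 1, the HS (−) pool was coupled to Cy5, a red dye, and the NS (−) pool to Cy3, a green one. On array 2, HS (−) was again in Cy5, against HS (ch+) in Cy3. With 1 pool per group, 1 array per comparison and no dye swap, no test across replicates could be made, and a preference of a probe for one dye cannot be told apart from a difference between the pools of an array.

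Glycolysis turns glucose into pyruvate. Glucose enters the cardiomyocyte through transporters of the Slc2a family, is trapped by hexokinase and is then split and oxidized in the steps that include glyceraldehyde-3-phosphate dehydrogenase and enolase; lactate dehydrogenase interconverts pyruvate and lactate. Several of these steps have forms that differ between tissues. Eno3 encodes beta-enolase, the form of adult striated muscle, and Eno1 encodes alpha-enolase, which is found in most tissues and prevails in the embryonic heart. Slc2a4 encodes GLUT4, the insulin-responsive transporter of muscle and fat, and Slc2a1 encodes GLUT1, the general transporter, which is prominent in the fetal heart. Ldhb encodes the H subunit of lactate dehydrogenase, typical of heart, and Ldha the M subunit, typical of skeletal muscle. The adult heart burns mainly fatty acids, and a shift of its fuel use and a partial return to fetal gene forms are known features of hypertrophy and failure.

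The sequences around the transcription start of the enolase genes are shown because the muscle and general forms differed most in these data, together with that of Pgam2, the muscle form of phosphoglycerate mutase, which catalyzes the step before enolase. They were taken from RefSeq (build GRCr8) and run from 250 bases before to 50 bases after the annotated start. By symbol, 7 of the 8 genes matched that table; Slc2a4 is the other. The windows are Eno3 at chr10:55868936-55869235 on the plus strand, Eno1 at chr5:166002617-166002916 and, for a further annotated start, at chr5:166003111-166003410, both on the plus strand, and Pgam2 at chr14:84897825-84898124 on the minus strand. Capitals mark E-boxes, CANNTG, the letters bound by muscle and other basic helix-loop-helix factors.
Eno3: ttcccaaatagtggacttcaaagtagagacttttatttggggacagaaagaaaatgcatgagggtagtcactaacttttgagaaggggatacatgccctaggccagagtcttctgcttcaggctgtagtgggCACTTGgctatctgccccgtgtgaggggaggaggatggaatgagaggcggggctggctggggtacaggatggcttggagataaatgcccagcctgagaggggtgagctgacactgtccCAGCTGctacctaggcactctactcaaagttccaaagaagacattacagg
Eno1 first start: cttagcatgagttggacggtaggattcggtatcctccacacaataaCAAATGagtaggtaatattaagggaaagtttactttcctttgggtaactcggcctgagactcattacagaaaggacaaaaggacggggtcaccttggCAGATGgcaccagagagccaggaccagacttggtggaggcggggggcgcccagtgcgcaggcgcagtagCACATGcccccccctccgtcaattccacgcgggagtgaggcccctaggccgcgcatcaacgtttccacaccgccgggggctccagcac
Eno1 second start: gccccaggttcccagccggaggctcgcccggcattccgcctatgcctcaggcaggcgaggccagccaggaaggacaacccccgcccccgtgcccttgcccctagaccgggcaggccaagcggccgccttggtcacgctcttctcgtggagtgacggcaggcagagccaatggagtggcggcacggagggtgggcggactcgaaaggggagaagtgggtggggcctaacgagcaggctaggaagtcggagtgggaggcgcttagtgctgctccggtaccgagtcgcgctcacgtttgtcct
Pgam2: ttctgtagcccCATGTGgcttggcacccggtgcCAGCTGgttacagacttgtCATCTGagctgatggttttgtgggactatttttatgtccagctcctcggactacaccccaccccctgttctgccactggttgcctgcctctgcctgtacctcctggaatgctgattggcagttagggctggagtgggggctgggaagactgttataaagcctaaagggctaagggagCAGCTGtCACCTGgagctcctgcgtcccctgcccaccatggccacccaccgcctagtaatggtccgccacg
The Eno3 window held 2 E-boxes and that of Pgam2 held 5, while the Eno1 windows held 3 and 0. E-boxes are common, and 72.1% of the 33469 windows in the table held at least 1. The GC box, GGGCGG on either strand, was found 2 times at the second start of Eno1. It was not found at the first start of Eno1 or in the windows of Eno3 and Pgam2, and 33.1% of all windows held it. The core of the hypoxia response element, ACGTG or GCGTG on either strand, occurred 2 times at the second start of Eno1, 1 time at its first start, 6 times in the window of Ldha, 4 times in that of Slc2a1, 3 times in that of Gapdh and 1 time in that of Ldhb, against 41.6% of all windows with at least 1, and it was not found in the windows of Eno3, Pgam2 and Hk2. For this core each strand was counted separately, so the palindrome CACGTG in the Ldha window entered on both strands. The MEF2 consensus was not found in any window of these genes, and 3.29% of all windows held it. GC content was 51.3% for Eno3, 58% for Pgam2, and 57.3% and 68.3% for the starts of Eno1, with a median of 51.7% over all windows. These matches describe letters in a window only.

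Signals below are spot intensities after subtraction of the mean of the blank spots, with the Cy3 signals divided by the factor that centers each array, 1.12 on array 1 and 1.30 on array 2, so that the pair of signals of an array gives the ratio directly. The ratio HS (−)/NS (−) comes from array 1, HS (ch+)/HS (−) from array 2, and HS (ch+)/NS (−) is their product. Because both ratios contain the same HS (−) pool, a deviation of that pool alone moves them in opposite directions, and their relation is not used as a result. HS (−) was in Cy5 on both arrays, so a preference of a probe for one dye does the same and cancels in the product. The measure of technical error was the repeat reading of the HS (−) pool: over the 4127 bright genes with both ratios, the log2 difference between the readings had an SD of 0.16, a 1.12-fold difference. Within an array, the log2 ratio over the 24 spots of each of the positive controls had an SD of 0.06 on both arrays. After centering, the medians of positive controls 1 and 2, as log2 Cy3 over Cy5, were -0.26 and -0.31 on array 1. On array 2 they were -0.19 and 0.0074. The reason for these offsets was not tested. Neither SD contains the differences between rats. The repeat reading sets Cy5 against Cy5, so its SD also lacks the difference between the dyes that each ratio contains. HS (−) signals were higher on array 2 by a median of 0.15 on the log2 scale, and signals of separate arrays contain this offset.

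Eno3 (ENSRNOG00000004078) was, of all 8 genes, the one with the lowest HS (−)/NS (−) ratio. Its signal was 5327 in NS (−), 1760 in HS (−) on array 1, 2303 in HS (−) on array 2 and 4066 in HS (ch+). Both readings of the HS (−) pool lay below those of the other pools, and HS (ch+) stood between HS (−) and NS (−). The HS (−)/NS (−) ratio was 0.330, the HS (ch+)/HS (−) ratio was 1.77 and the HS (ch+)/NS (−) ratio was 0.583. Since Eno3 was picked for a ratio under 0.5 in the first comparison and over 1.4 in the second, these values describe the selection. Among the 4127 genes it had the 7th lowest HS (−)/NS (−) ratio, the 28th highest HS (ch+)/HS (−) ratio and the 18th lowest HS (ch+)/NS (−) ratio. These ranks hold for bright genes, and that filter uses the HS (−) signal, which enters the first 2 ratios. Of all 12290 genes with both ratios, 0.57% had a lower HS (−)/NS (−) ratio than Eno3. For HS (ch+)/HS (−) and HS (ch+)/NS (−), 98.3% and 3.10% of them were lower. The readings of the HS (−) pool for Eno3 differed by 0.24 on the log2 scale after removal of the median difference between the arrays, which exceeded the SD of 0.16. With the reading of the other array in each ratio, HS (−)/NS (−) was 0.380 and HS (ch+)/HS (−) was 2.06.

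Eno1 (ENSRNOG00000017895), the general enolase, showed the opposite order. Its signal was 2082 in NS (−), 3084 and 3417 in the HS (−) readings of arrays 1 and 2, and 2489 in HS (ch+). Both HS (−) readings were above the signals of the other pools. The HS (−)/NS (−) ratio was 1.48, the HS (ch+)/HS (−) ratio was 0.728 and the HS (ch+)/NS (−) ratio was 1.08. The last value differs from 1 by 0.11 on the log2 scale, but the SD of the repeat reading does not apply to a product of both ratios. On the log2 scale the first value was 3.55 times that SD from 0 and the second 2.86 times. The HS (−) readings of Eno1 differed by 0.0022 on the log2 scale after removal of the median difference. Both were in Cy5, so neither this value nor the SD covers a dye preference of the probe, which was not tested.

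**Figure D1:**
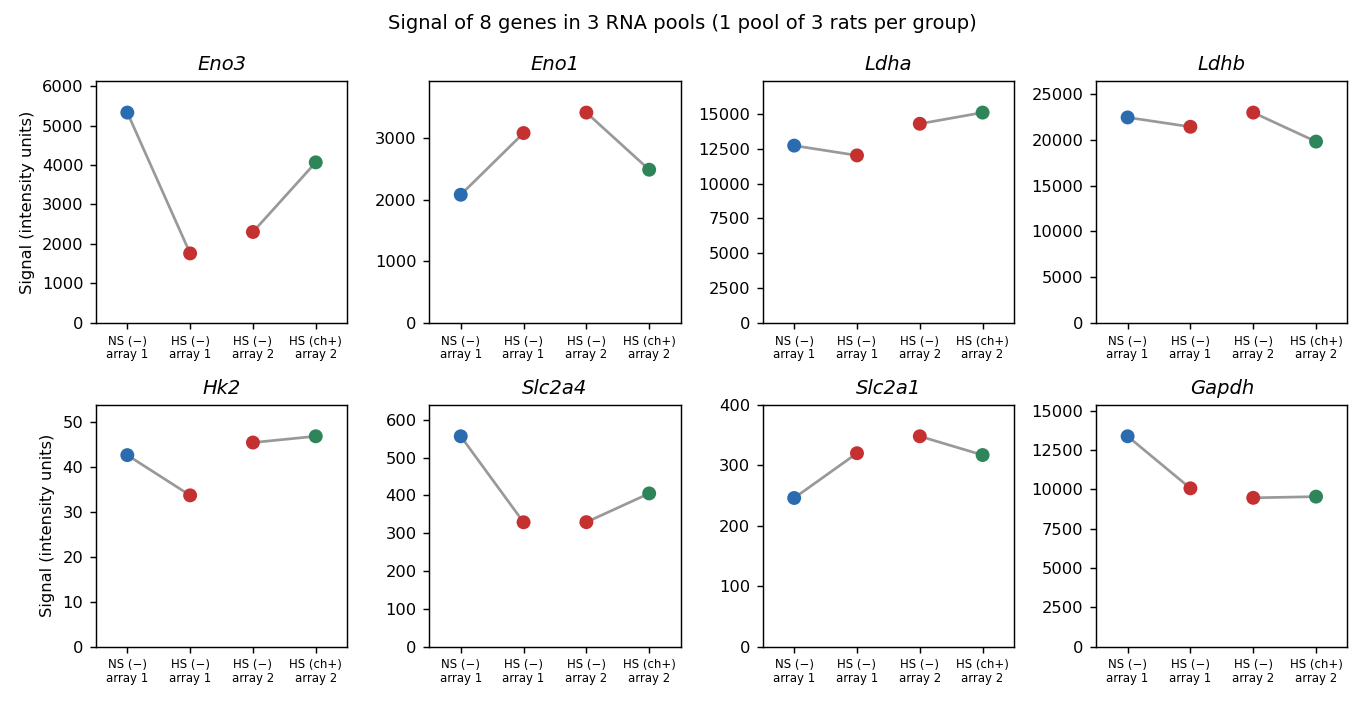
Signal of each gene (vertical axis, intensity units after blank subtraction, Cy3 signals divided by the centering factor of the array) in the 4 channels, with 1 point per channel and a line joining the channels of one array; each pool holds RNA of 3 rats and has no replicate. Eno3 was at 5327 in NS (−), 1760 and 2303 in HS (−) and 4066 in HS (ch+), while Eno1 was highest in HS (−), at 3084 and 3417.

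Glucose transporters differed in the same sense as the enolases on array 1, with a smaller gap. Slc2a4 (ENSRNOG00000017226) had a signal of 557 in NS (−), 329 in HS (−) on both arrays and 405 in HS (ch+). In these signals the HS (−) readings were below the other pools, and HS (ch+) lay between HS (−) and NS (−). Its HS (−)/NS (−) ratio was 0.591, the 175th lowest of the 4127 genes, and its HS (ch+)/NS (−) ratio was 0.728. Of all 12290 genes with both ratios, 5.75% had a lower HS (−)/NS (−) ratio than Slc2a4. The HS (ch+)/HS (−) ratio was 1.23, which is 1.88 times the SD of the repeat reading, and 1.10 with the HS (−) reading of array 1. Slc2a1 (ENSRNOG00000007284) had a signal of 246 in NS (−), 320 and 348 in the HS (−) readings, and 317 in HS (ch+). NS (−) was the lowest of the 4 signals, and HS (ch+) was below both HS (−) readings. Its HS (−)/NS (−) ratio was 1.30, its HS (ch+)/HS (−) ratio was 0.911, which differs from 1 by less than the SD, and its HS (ch+)/NS (−) ratio was 1.19. The background value recorded beside the spot made up 63.5% to 74.2% of the spot for Slc2a4 and 67.3% to 78.9% for Slc2a1. With these values subtracted in place of the blanks, the HS (ch+)/HS (−) ratio of Slc2a4 was 1.91 and its HS (ch+)/NS (−) ratio was 1.146. The HS (ch+)/NS (−) ratio of Slc2a4 was also above 1 with normexp and loess, at 1.044. It was below 1 in 7 of 9 other settings, so the order of HS (ch+) and NS (−) depended on the processing.

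Lactate dehydrogenase subunits showed no difference in HS (−) beyond the technical error. Ldha (ENSRNOG00000013009) had a signal of 12731 in NS (−), 12026 and 14299 in HS (−), and 15103 in HS (ch+). Its signals on the same array were close together, and both were higher on array 2 than on array 1. The ratios were 0.945 for HS (−)/NS (−), 1.06 for HS (ch+)/HS (−) and 0.998 for HS (ch+)/NS (−). Ldhb (ENSRNOG00000013000) had a signal of 22440 in NS (−), 21419 and 22970 in HS (−), and 19802 in HS (ch+), the lowest of the 4 readings. Its HS (−)/NS (−) ratio was 0.954. Its HS (ch+)/HS (−) ratio was 0.862, or 1.34 times the SD. Its HS (ch+)/NS (−) ratio was 0.823, to which the SD of a single reading difference does not apply because it is a product of both ratios.

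Gapdh (ENSRNOG00000018630), the oxidizing step of glycolysis and a common reference gene, had a signal of 13382 in NS (−), 10070 and 9466 in HS (−), and 9541 in HS (ch+). All 3 readings of high-salt hearts were below that of NS (−). The HS (−)/NS (−) ratio was 0.753, or 2.57 times the SD, and the HS (ch+)/NS (−) ratio was 0.759, while the HS (ch+)/HS (−) ratio was 1.01. The first of these depends on the background correction, with 1.01 without any subtraction and 0.537 with the value beside each spot subtracted, and in the latter setting HS (ch+)/HS (−) was 1.66. Rat Gapdh has many pseudogenes, and the probe sequences were not used here, so cross-hybridization was not tested. Hk2 (ENSRNOG00000006116), the insulin-regulated hexokinase of muscle, was dim, with signals of 42.6 in NS (−), 33.6 and 45.4 in HS (−), and 46.8 in HS (ch+). With either reading of the HS (−) pool, HS (−) was below NS (−) and the size differed between the readings. Its ratios were 0.790 for HS (−)/NS (−), 1.03 for HS (ch+)/HS (−) and 0.814 for HS (ch+)/NS (−). In the 1810 genes with a mean HS (−) signal from 25 to 50, the repeat reading had an SD of 0.20, and with the HS (−) reading of array 2 the HS (−)/NS (−) ratio of Hk2 was 0.937.

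**Figure D2:**
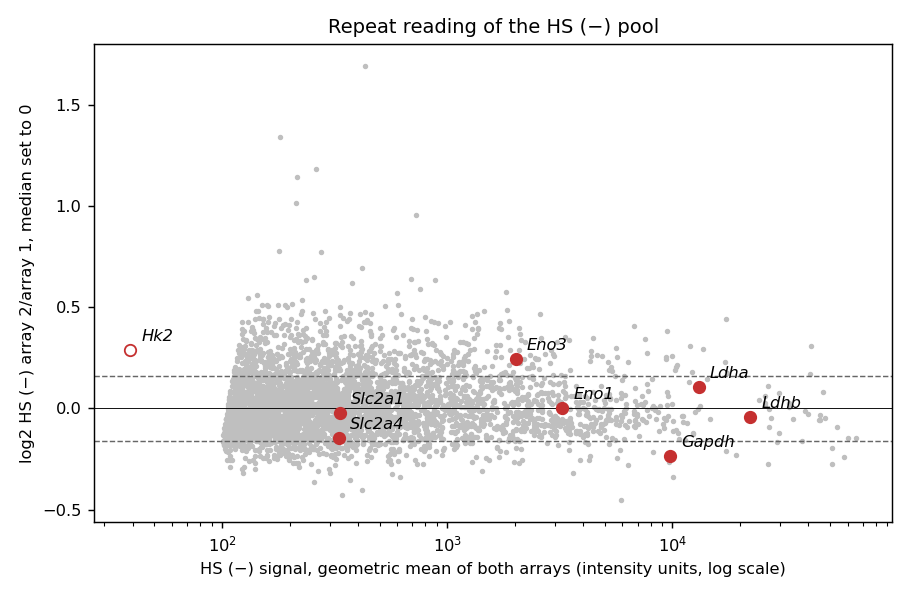
Repeat reading of the HS (−) pool, as the log2 ratio of its signal on array 2 to that on array 1 with the median set to 0 (vertical axis), against the geometric mean of both signals (horizontal axis, intensity units, log scale); gray points are the 4127 bright genes, red points the members, the open point Hk2, and dashed lines 1 SD of 0.16. Eno3 lay 0.24 above 0, Gapdh 0.23 below it and Hk2 0.29 above it, and the other 5 genes were within 1 SD.

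Against a limit of 1.4-fold, 2 of the 7 bright members, Eno3 and Slc2a4, had an HS (−)/NS (−) ratio under 0.714, the inverse of 1.4, as did 13.5% of the 4127 genes. A ratio over 1.4 was found for 1 of the 7, Eno1, and for 12% of all. In either direction these are 3 of 7 genes against 25.5% of all. A ratio under 0.5 was reached by 1 of the 7, Eno3, and by 1.38% of all, and a ratio over 2 by 0 of the 7 and by 4.17%. These shares hold for bright genes only, and the filter on the HS (−) signal leaves out genes that are low in HS (−). With chaetocin, 1 of the 7, Eno3, had an HS (ch+)/HS (−) ratio over 1.4, as did 5.86% of all, and 0 of the 7 had a ratio under 0.714, as did 4.6%; Eno1, at 0.728, was the closest to that limit. For HS (ch+)/NS (−), 1 of the 7, again Eno3, was under 0.714, against 2.47% of all, and Slc2a4, at 0.728, lay just outside; 0 of the 7 were over 1.4, against 7.85%. With Aquantile normalization between the arrays these changed places, with 0.726 for Eno3 and 0.640 for Slc2a4. Hk2 passed none of these limits, and among the 12290 genes with both ratios and any signal 29.3% passed a 1.4-fold limit for HS (−)/NS (−). Without Eno3, which was selected on them, 2 of the 6 bright members passed a 1.4-fold limit in HS (−)/NS (−), 0 of the 6 in HS (ch+)/HS (−) and 0 of the 6 in HS (ch+)/NS (−), which for so few genes is near the background shares and is no result about the set.

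Over the 8 members the median HS (−)/NS (−) ratio came to 0.864, with 6 below 1 and 2 above. That of the 4127 bright genes was 0.978, with 53.3% of them below 1. The 8 members include the dim Hk2, and over the 7 bright members the median was 0.945, closer to that of the 4127. The median HS (ch+)/HS (−) ratio was 1.02 for the 8 genes, 1.01 for the 7 bright members and 1.02 for the 4127. For HS (ch+)/NS (−) the medians were 0.818 for the 8 genes, 0.823 for the 7 bright members and 0.990 for the 4127. Below 1 were 6 of the 8 genes, with the dim Hk2 among them, and 52.5% of the 4127 bright genes. These members ran from 0.583 for Eno3 to 0.998 for Ldha. The count of 6 depends on the processing. With the background of each spot subtracted, Slc2a4, Ldhb and Hk2 were above 1, at 1.146, 1.080 and 1.292. Ldha was below 1 in 4 of 9 other settings, while Eno3 and Gapdh were below 1 in all 9. The members ranged from 0.330 to 1.48 in HS (−)/NS (−) and from 0.728 to 1.77 in HS (ch+)/HS (−).

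**Figure D3:**
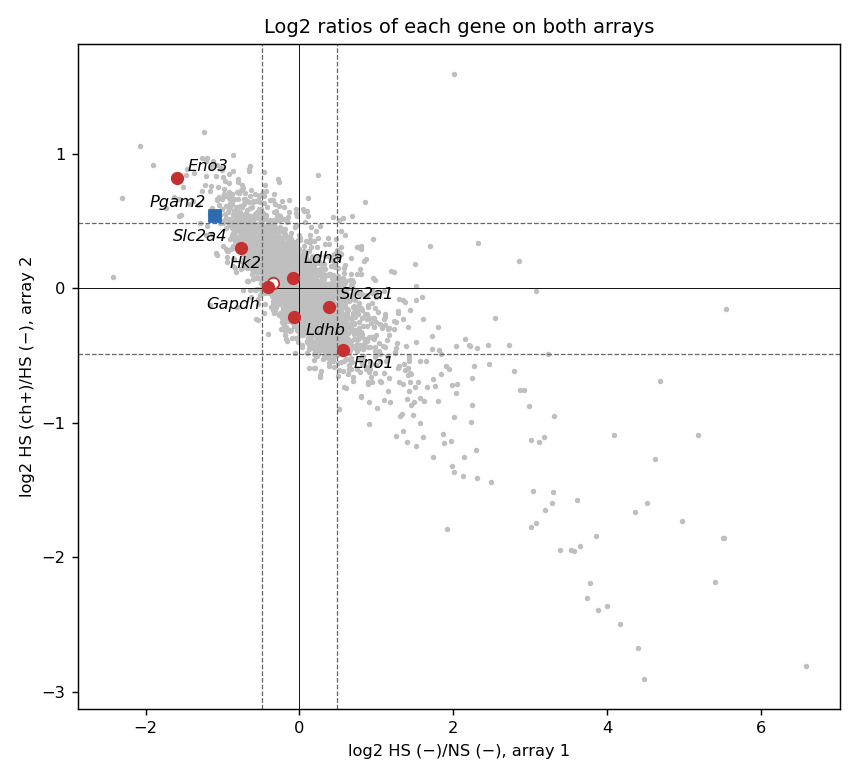
Log2 HS (ch+)/HS (−) on array 2 (vertical axis) against log2 HS (−)/NS (−) on array 1 (horizontal axis) for the 4127 bright genes (gray), the members (red, Hk2 open because its signal was below 100) and Pgam2 (blue square); dashed lines mark 1.4-fold. Both axes contain the same HS (−) pool, in opposite senses. Eno3 lies at the upper left, at -1.60 and 0.82, and Eno1 to the right of and below the origin, at 0.57 and -0.46.

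Paired forms were compared by the difference of their log2 ratios, in which the centering of an array cancels. Levels of different probes were not set against each other. The log2 HS (−)/NS (−) ratio of Eno3 minus that of Eno1 was -2.16, so that the proportion of Eno3 to Eno1 in HS (−) was 0.223 of that in NS (−). The technical SD of such a difference, taken from the repeat reading, is 0.23. With chaetocin the difference between Eno3 and Eno1 was 1.28 relative to HS (−), which left the proportion in HS (ch+) at 0.541 of that in NS (−). For Slc2a4 minus Slc2a1 the differences were -1.14 for HS (−)/NS (−) and 0.43 for HS (ch+)/HS (−), or 5.04 and 1.92 times the technical SD. The proportion in HS (ch+) was 0.614 of that in NS (−), and the Slc2a4 ratio within it depended on the background correction. For Ldhb minus Ldha they were 0.015 and -0.29, the latter 1.30 times the technical SD. Ldhb and Ldha are the heart and the skeletal muscle subunit, so that this pair does not set a muscle form against a general one. The enolase difference contains the ratio Eno3 was selected on and is a description. The technical SD holds no differences between rats, and with 1 pool per group the difference between the glucose transporters has no check against them. Slc2a4, Slc2a1 and Eno1 were not in the list of 50 genes, but were chosen with results of these arrays known.

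The other genes of the pathway could be followed only where an ID was paired with a name. Of 35 further genes of glycolysis, lactate and pyruvate handling, 2 had an ID, Pgam2 and Pdp2, both through the list of 50 genes and thus through the same ratios, and the other 33 were not analysed here. Pgam2 had a signal of 2799 in NS (−), 1303 and 1281 in HS (−), and 1859 in HS (ch+). Its ratios were 0.466 for HS (−)/NS (−), 1.45 for HS (ch+)/HS (−) and 0.676 for HS (ch+)/NS (−), so that it lay just inside the limits of that list. Slc2a4, at 0.591 and 1.23, was farther from them, with the 175th lowest HS (−)/NS (−) ratio of the bright genes, of which 57 were under 0.5. Pdp2, which encodes a phosphatase that activates the pyruvate dehydrogenase complex, had signals of 700 in NS (−), 188 and 208 in HS (−), and 393 in HS (ch+). Its ratios were 0.268, 1.89 and 0.508.

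The genes nearest to Eno3 were sought among the 4127 genes by the distance between both log2 ratios, over 3 pools. Within a distance of 0.25 there were 6 genes. The closest was Rbfox1, at a distance of 0.11 with ratios of 0.351 and 1.69, followed by Lrp16 (Macrod1) at 0.12, Fkbp4 at 0.14, Cd74 at 0.15 and Wfdc1 at 0.16. The search used the ratios that Eno3 was selected on, and a gene as close to it as these 5 meets the ratio limits of the list of 50 genes by construction. All 5 are in that list.

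Of the cardiac muscle markers, 4 of 8 had an ID. Myh6, the alpha-myosin heavy chain, had a signal of 58269 in NS (−), from a saturated spot and thus a lower limit, 11788 and 15969 in HS (−), and 25413 in HS (ch+). Txlnb, Rpl3l and Dhrs7c had HS (−)/NS (−) ratios of 0.480, 0.415 and 0.238. Among markers of other cells, the basement membrane collagen Col15a1, 1 of 5 matrix markers with an ID, had a ratio of 0.436, and Cd74, 1 of 2 markers of antigen-presenting cells, had 0.363. All 6 markers come from the list of 50 genes and so were selected to be low in HS (−). Their ratios therefore cannot check the makeup of the tissue. Markers of endothelium, smooth muscle and erythroid cells had no ID, and the part of the cell makeup in the values of Eno3 and Slc2a4 was not tested. In tissue RNA, fewer cells of a type and less RNA per cell cannot be told apart.

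The ratios were recalculated with 9 other settings for each comparison, of which the deposited table is by construction the same as the reported values. Eno3 had an HS (−)/NS (−) ratio between 0.294 and 0.444 and an HS (ch+)/HS (−) ratio between 1.404 and 2.29, past the 1.4-fold limit in all 9 settings of both comparisons. Eno1 kept its direction in all 9 settings of both, with HS (−)/NS (−) between 1.32 and 1.96 and HS (ch+)/HS (−) between 0.585 and 0.946, and was past the limit in 7 and 4 of them. Slc2a4 had an HS (−)/NS (−) ratio between 0.520 and 0.789, past the limit in 7 of 9 settings; with chaetocin its ratio was between 0.998 and 1.91, past the limit in 3. Slc2a1 was above 1 in HS (−) in all 9 settings, between 1.16 and 1.597, and its HS (ch+)/HS (−) ratio was between 0.760 and 1.18. Gapdh had an HS (−)/NS (−) ratio between 0.537 and 1.01, past the limit in 5 of 9 settings although not as reported, and it was 0.622 when the arrays exchanged their HS (−) readings. Its HS (ch+)/HS (−) ratio was between 0.804 and 1.66. Hk2 was between 0.703 and 1.005 in HS (−)/NS (−) and between 0.968 and 1.34 in HS (ch+)/HS (−). Ldha, Ldhb, Hk2 and Gapdh lay on both sides of 1 in both comparisons, as did Slc2a4 and Slc2a1 in HS (ch+)/HS (−).

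**Figure D4:**
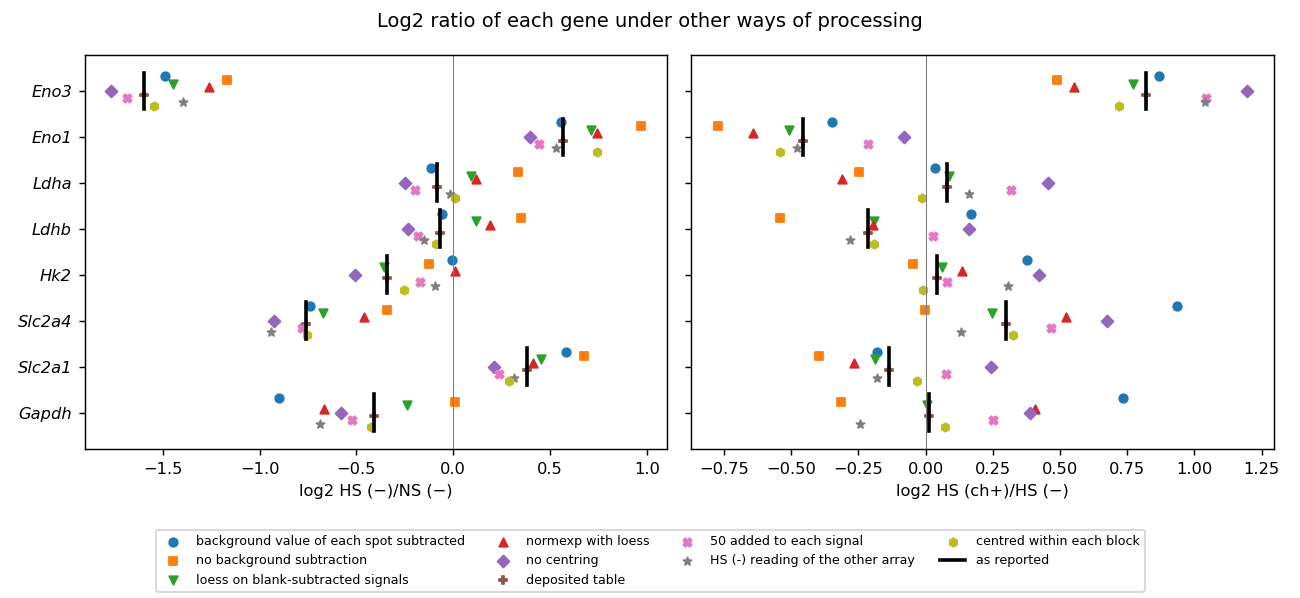
Log2 HS (−)/NS (−) (left) and log2 HS (ch+)/HS (−) (right) of each gene (rows) under 9 other settings (symbols) and as reported (black line), with 0 marking equal levels. Eno3 and Eno1 stayed on opposite sides of 0 in both panels, while Ldha, Ldhb, Hk2 and Gapdh lay on either side of it.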

How the data were processed

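The authors deposited scanner output for 2 dual-color arrays with the median intensity of each spot and of its background at 635 and 532 nm, combined from scans at 3 gains, and a table of log2 ratios without a stated scale or direction. Set against the intensities, the deposited log2 values proved to be Cy3 over Cy5 after subtraction of the mean of the 4553 blank spots (5% trimmed at each end), without spots under 2 SD above it, centered on the median over genes and 521 quality control spots. Recalculated values differed by at most 2.7e-05, and the medians of the deposited columns were 0.0020 and 0.0010; neither scale, centering nor direction stays unknown. Blank means were 24.8 and 25.5 in Cy5 and 48.1 and 51.2 in Cy3. The recalculated ratios were used, although the planning had left normexp with loess open; these are alternatives.

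The files list Ensembl IDs without symbols. The name of Eno3 and of the further genes came from the study's list of 50 genes, with current symbols from RefSeq; the IDs and names of the other 7 members came with the definition of the set, since 0 array IDs were listed in the RefSeq table (GRCr8). Named were the 8 members, further genes of a glycolysis list, cell markers with an ID and the 5 genes nearest to Eno3. The members and lists were chosen with earlier results of these data known. The processing was also run on simulated data with raised, lowered and unchanged genes. That simulation held no dye preference of single probes and no local background, so it says nothing about errors from these. Python 3.11.15 with numpy 2.4.6 and pandas 2.3.3, and R 4.3.3 with limma 3.58.1, were used. The number of arrays limits the precision.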

Additional observations from a re-analysis of the deposited data

How the results depend on the processing

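Centering within blocks was chosen after the data had been seen. With 1 array per comparison no array could be left out, and the scans at the single gains were not run, as 1 combined value per spot is deposited. No paired analysis was possible because each group had 1 pool. Other settings moved the median log2 ratio of the 4127 genes: HS (−)/NS (−) by 0.32 without background subtraction and by -0.17 without centering, and HS (ch+)/HS (−) by -0.27 and 0.38 in these settings, by 0.24 with the background of each spot subtracted and by 0.19 with 50 added. The causes were not tested.

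The number of genes past a 1.4-fold limit in HS (−)/NS (−), 3 of 7, was 5 with the background of each spot subtracted and 4, with Gapdh added, when the arrays exchanged their HS (−) readings. It stayed at 3 otherwise, but Slc2a1 took the place of Slc2a4 without subtraction, Gapdh that of Slc2a4 with normexp and loess, and Gapdh that of Eno1 without centering and with 50 added. In HS (ch+)/HS (−), 1 of 7, it was 3 with the background of each spot subtracted, 3 without subtraction, 2 with loess, 3 with normexp and loess, 2 without centering and 2 with centering within blocks. In HS (ch+)/NS (−) it was 1 of 7 in every setting run, but this gene was Slc2a4 instead of Eno3 with Aquantile. The difference of Eno3 minus Eno1 was -1.92 for HS (−)/NS (−) and 1.52 for HS (ch+)/HS (−) when the arrays exchanged their HS (−) readings. For Slc2a4 minus Slc2a1 it was -0.87 for HS (−)/NS (−) with normexp and loess, and for HS (ch+)/HS (−) it was 1.12 with the background of each spot subtracted and 0.79 with normexp and loess. For Ldhb minus Ldha in HS (ch+)/HS (−) it was 0.13 and 0.12 in the latter settings. No ratio that was past a 1.4-fold limit as reported changed its direction in any setting. Some ratios past it only in other settings lay on both sides of 1, such as Gapdh in HS (ch+)/HS (−), at 1.66 and 0.804.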
